A study of Mus musculus with 10 samples.

Results

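The glycolysis and hypoxia-response genes are 34 genes, picked by symbol from the 32074 rows of a deposited expression table, that together cover the route by which a cell takes up glucose, splits it to pyruvate, turns pyruvate into lactate and exports it, and the oxygen-sensing system that regulates that route. All 34 had a row, and all 34 passed the filter on low values (a mean of at least 1 TPM, a transcript abundance corrected for gene length and scaled to the same total in every library, over the 10 libraries), which left 14806 genes for testing. Messenger RNA was sequenced from primary microglia, the resident macrophages of the brain, cultured from the cortices of CD-1 mouse pups at postnatal day 2 to 4. Cultures were exposed for 24 h to 1 µg of small extracellular vesicles (sEVs), particles shed by cells and enclosed by a membrane, or to phosphate-buffered saline (PBS), the vehicle. SNI sEVs, isolated from serum after spared nerve injury (surgery that leaves part of the sciatic nerve intact and produces lasting pain), gave 3 libraries. Serum of sham-operated animals supplied the sham sEVs of 3 further libraries, and PBS gave 4. All 3 groups were kept in medium whose fetal bovine serum had been depleted of exosomes. The labels number the libraries as biological replicates without saying whether cultures or vesicle preparations were separate, so each p-value measures only the spread between these libraries.

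Glycolysis converts glucose to pyruvate in the cytosol, and hexokinase, phosphofructokinase and pyruvate kinase catalyse its essentially irreversible steps. Lactate dehydrogenase reduces pyruvate to lactate and so returns the NAD+ that the pathway consumes, while pyruvate dehydrogenase sends pyruvate into the mitochondrion. When oxygen is plentiful, prolyl hydroxylases mark the alpha subunits of hypoxia-inducible factor (HIF) for destruction. When oxygen is scarce, or in macrophages given inflammatory stimuli, HIF-1α accumulates and induces many glycolytic genes.

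The 3 sham sEV libraries stood apart from the other 7. The first principal component of all tested genes held 85.9% of the variance and placed them at 70.5 to 72.0, against -24.7 to -20.4 for SNI sEV and -38.7 to -32.7 for PBS libraries. Sham sEV libraries had 14117 to 14166 genes at 1 TPM or more, SNI sEV libraries 14869 to 14900 and PBS libraries 14577 to 14973. Read totals cannot be recovered from TPM, so the depth of each library is unknown, and in bulk cultures fewer cells of a type and less RNA per cell cannot be told apart. All 12 microglia and macrophage markers were present in every library, and Csf1r, the receptor for colony-stimulating factor 1, averaged 758 TPM in SNI sEV, 639 TPM in sham sEV and 755 TPM in PBS cultures. Their summed level was 12107 to 12670.0 TPM in SNI sEV, 9939 to 10269 TPM in sham sEV and 10773 to 11673 TPM in PBS libraries.

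Sham sEVs split the 34 genes: 8 were higher and 11 lower than with PBS (limma, Benjamini-Hochberg adjusted p under 0.05). Of all genes tested in that comparison, 16.5% were called higher and 52.5% lower. With SNI sEVs 10 members were lower than with PBS and 0 higher, beside 2.36% of all genes called lower and 2.97% higher. At an unadjusted p under 0.05 the members' counts were 15 lower and 2 higher of 34, beside 1766 lower and 976 higher of 14806 genes, with limma the only tool run. Between the vesicles, 12 members were higher and 17 lower with SNI sEVs than with sham sEVs, beside 49.9% and 15.7% of all genes. All libraries of a group lay above or below the other group, without overlap, for 8 and 11 members with sham sEVs against PBS (16.7% and 49.8% of all genes), for 2 and 16 with SNI sEVs against PBS (6.29% and 11.1%), and for 12 and 18 with SNI sEVs against sham sEVs (58.8% and 19.4%). The comparisons against PBS share the 4 PBS libraries, and the comparison between vesicles shares libraries with both. Pfkl, Ndrg1 and Ankrd37 were called in all 3 comparisons, and Hk1, Hk3, Pgam1, Pdha1 and Bnip3 in none.

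The scale matters for comparisons with sham sEV. The median log2 fold change of all tested genes was -0.25 for sham sEV against PBS and 0.24 for SNI sEV against sham sEV, against -0.01 for SNI sEV against PBS. The members' medians were -0.04, -0.16 and -0.16, in the same order. After median-of-ratios scaling, which centres the typical gene at no change, 22 members were higher and 10 lower with sham sEVs than with PBS, beside 31.9% and 30.9% of all genes. The counts were then 0 higher and 6 lower for SNI sEV against PBS (3.31% and 1.74% of all genes), and 9 higher and 22 lower for SNI sEV against sham sEV (28.7% and 30.2%). Members whose sign turns with this choice are named below.

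**Figure D1:**
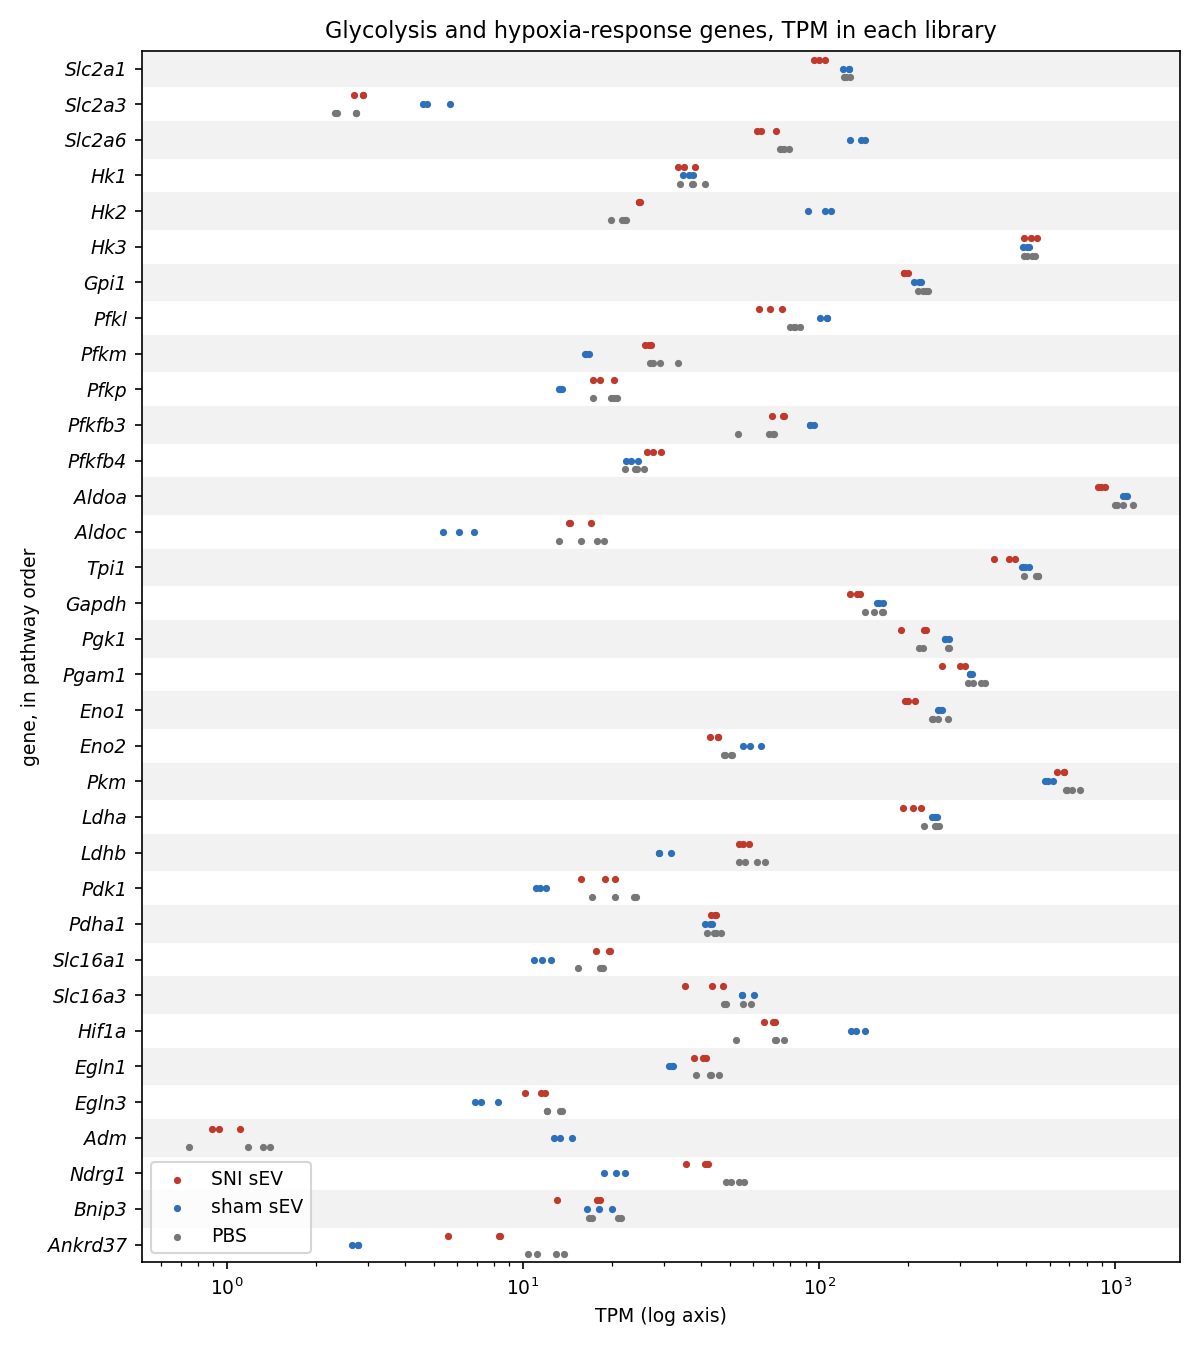
TPM of each of the 34 genes (rows, in pathway order, on a log axis) in every library, with SNI sEV in red above sham sEV in blue and PBS in grey. Sham sEV points lie clear of the others for Hk2, Hif1a and Adm to the right and for Aldoc, Ndrg1 and Ankrd37 to the left, while the 3 groups overlap for Hk1, Hk3 and Pdha1.

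**Figure D2:**
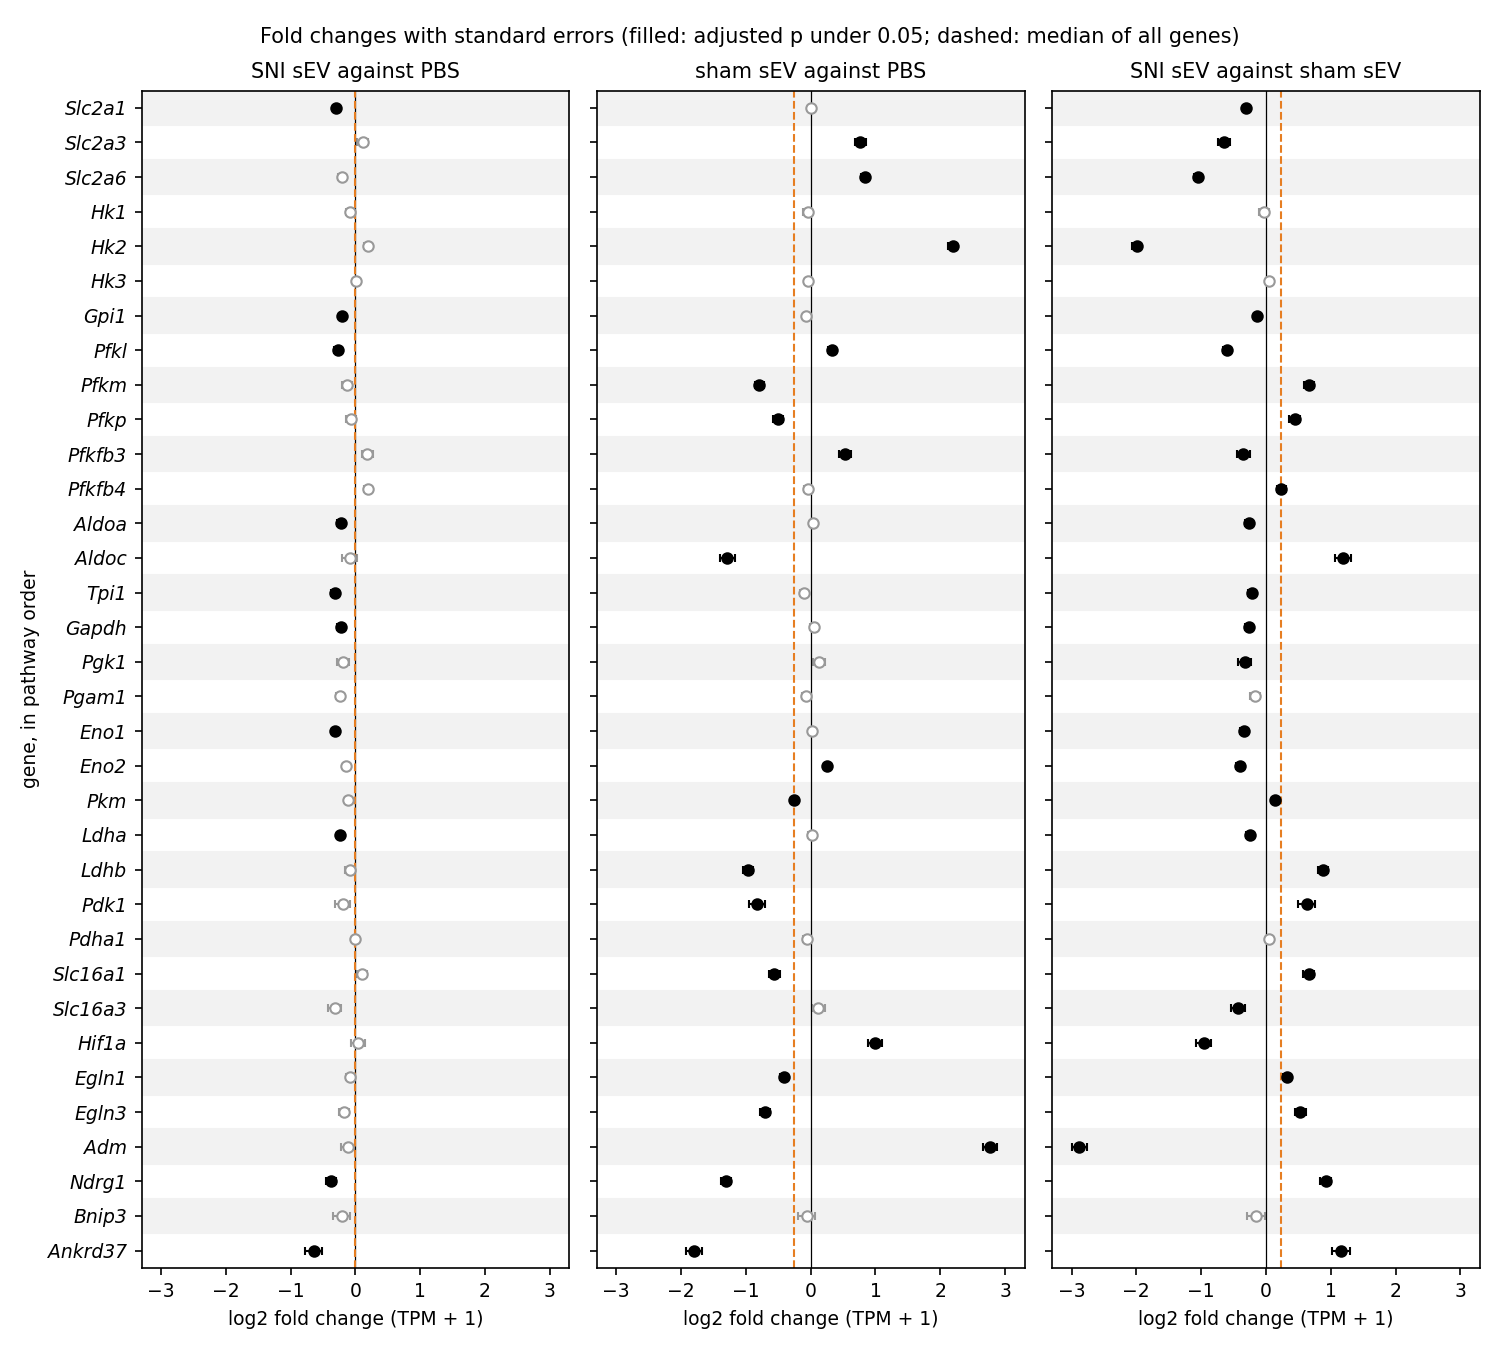
Log2 fold change on the scale of TPM + 1 with its standard error for the 34 genes (rows) in each comparison (panels); filled points have an adjusted p under 0.05 and the dashed line is the median of all tested genes. For SNI sEV against PBS all points lie between -0.64 and 0.20, whereas the panels with sham sEV reach 2.76 and -2.88; in the sham sEV against PBS panel Hk1, Hk3, Gpi1, Pfkfb4, Tpi1, Pgam1, Pkm and Pdha1 lie left of 0 and are right of it after median-of-ratios scaling.

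HIF binds DNA at the core letters ACGTG or GCGTG. Promoters are shown for the HIF subunit gene Hif1a and for 3 members with large changes, hexokinase 2 (Hk2), adrenomedullin (Adm) and Ankrd37. Each is 300 bases from RefSeq on GRCm38.p6, from 250 before to 50 after the transcription start, read 5′ to 3′ on the gene's strand. Capitals mark these letters on either strand, and overlapping matches run together. Hk2 lies at chr6:82774405-82774704 (minus strand), Adm at chr7:110627407-110627706 (plus), Hif1a at chr12:73907617-73907916 (plus) and Ankrd37 at chr8:45999801-46000100 (minus).
Hk2: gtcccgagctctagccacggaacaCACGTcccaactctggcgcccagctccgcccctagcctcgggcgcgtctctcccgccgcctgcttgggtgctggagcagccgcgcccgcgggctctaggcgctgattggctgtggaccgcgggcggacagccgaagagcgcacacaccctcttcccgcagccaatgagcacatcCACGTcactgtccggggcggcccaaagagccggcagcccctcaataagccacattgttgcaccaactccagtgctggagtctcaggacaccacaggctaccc
Adm: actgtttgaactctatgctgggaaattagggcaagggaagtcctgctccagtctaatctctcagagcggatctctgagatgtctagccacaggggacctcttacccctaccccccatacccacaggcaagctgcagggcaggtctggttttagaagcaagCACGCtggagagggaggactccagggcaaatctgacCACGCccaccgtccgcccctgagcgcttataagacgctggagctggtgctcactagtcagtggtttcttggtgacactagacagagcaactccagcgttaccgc
Hif1a: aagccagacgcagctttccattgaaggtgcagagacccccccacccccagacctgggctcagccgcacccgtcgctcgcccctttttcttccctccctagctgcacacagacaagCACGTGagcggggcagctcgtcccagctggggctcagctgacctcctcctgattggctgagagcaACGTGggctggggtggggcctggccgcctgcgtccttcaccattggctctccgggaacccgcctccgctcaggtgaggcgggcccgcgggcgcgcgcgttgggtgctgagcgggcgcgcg
Ankrd37: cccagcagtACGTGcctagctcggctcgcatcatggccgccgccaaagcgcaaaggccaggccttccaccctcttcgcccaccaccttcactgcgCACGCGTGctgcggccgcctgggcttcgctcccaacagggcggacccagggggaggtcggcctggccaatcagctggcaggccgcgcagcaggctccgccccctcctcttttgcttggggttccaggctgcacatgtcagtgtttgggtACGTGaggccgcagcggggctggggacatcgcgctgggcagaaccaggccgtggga

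The Hk2 promoter held 2 matches, at -226 and -52 from the start, and the Adm promoter also 2, at -90 and -54. Hif1a had 3, where the palindrome CACGTG counts as a match on each strand, and Ankrd37 had 4. Of the 45 member promoters in the RefSeq table, 37 held at least 1 match (82.2%), against 14380 of all 32851 promoters (43.8%). By gene, 29 of 32 members had a match in any promoter (90.6%), against 46.7% of all genes. Among members higher with sham sEVs than with PBS the motif was found in 6 of 7, among those lower in 10 of 10, and among those not called in 13 of 15. The difference between these shares was not tested. The letters are a description of these windows and do not show binding.

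Glucose enters through the facilitative transporters of the SLC2 family. Slc2a1, which encodes GLUT1, the general transporter, had 96.1, 99.7 and 104 TPM with SNI sEVs, 126, 126 and 120.0 TPM with sham sEVs and 123, 127, 122 and 122 TPM with PBS. All SNI sEV libraries were below all others. Slc2a1 fell by 0.30 on the log2 scale with SNI sEVs against PBS (SE 0.05, limma adjusted p = 0.0021) and was lower than with sham sEVs (log2 fold change -0.31, adjusted p = 0.00019). Its call for SNI sEV against PBS held under every alternative run. With sham sEVs its log2 fold change against PBS was 0.0046 (adjusted p = 0.93), but 0.29 (adjusted p = 0.00048) after median-of-ratios scaling.

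Slc2a6 (GLUT6), a transporter abundant in leukocytes, had 71.3, 61.5 and 63.8 TPM with SNI sEVs, 127, 138 and 143 TPM with sham sEVs and 73.5, 79.0, 74.5 and 76.1 TPM with PBS. The sham sEV libraries were the high ones. Sham sEVs raised it 1.79-fold over PBS on the scale of TPM + 1 (limma adjusted p = 2.5e-07), and it was 2.06-fold lower with SNI sEVs than with sham sEVs (adjusted p = 9e-08). SNI sEV libraries also lay below all PBS libraries, but that change did not pass (log2 fold change -0.21, adjusted p = 0.083). Slc2a3 (GLUT3), the high-affinity neuronal transporter, was scarce at 2.82 ± 0.11 TPM with SNI sEVs (SD, n = 3), 5.00 ± 0.59 TPM with sham sEVs (n = 3) and 2.53 ± 0.23 TPM with PBS (n = 4), and rose with sham sEVs against PBS (log2 fold change 0.76, limma adjusted p = 1.1e-05). Slc2a6 made up 38.9% of the summed TPM of the 3 transporters with SNI sEVs, 51.3% with sham sEVs and 37.5% with PBS.

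Hexokinase phosphorylates glucose and so traps it in the cell. Hk2, the inducible isoform, had 24.8, 24.7 and 24.6 TPM in SNI sEV libraries, 109, 104 and 92.0 TPM in sham sEV libraries and 19.9, 22.2, 22.2 and 21.7 TPM in PBS libraries. The sham sEV group thus stood alone, with a 4.57-fold rise over PBS (log2 fold change 2.19, SE 0.07, limma adjusted p = 1.4e-10) and SNI sEV 3.99-fold below it (adjusted p = 7.9e-10). SNI sEV libraries were above all PBS libraries, by a log2 fold change of 0.20 that did not pass (95% interval 0.05 to 0.34, limma adjusted p = 0.13). Of all tested genes, 6.29% lay wholly above the PBS range in that way. The gene lies on chromosome 6, 82725025 to 82774454 (GRCm38, GENCODE vM21, minus strand).

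Hk3, the hexokinase of myeloid cells, was by far the most abundant isoform and did not follow Hk2. It had 493, 520.2 and 542 TPM with SNI sEVs, 510.5, 505 and 487 TPM with sham sEVs and 490.0, 536, 525 and 503 TPM with PBS. The groups overlapped in every comparison, with log2 fold changes of 0.01, -0.04 and 0.05 for SNI sEV against PBS, sham sEV against PBS and SNI sEV against sham sEV. Hk1, the constitutive isoform, averaged 35.4 ± 2.4 TPM with SNI sEVs, 36.1 ± 1.4 TPM with sham sEVs and 37.5 ± 3.0 TPM with PBS (SD, n = 3, 3 and 4), also without a call. After median-of-ratios scaling Hk1 and Hk3 turned to higher with sham sEVs than with PBS (log2 fold changes 0.23 and 0.25). Because Hk2 rose on a large stock of Hk3, its share of hexokinase TPM was 4.28% with SNI sEVs, 15.9% with sham sEVs and 3.75% with PBS, and the summed hexokinase TPM was 579 ± 26, 639 ± 23 and 573 ± 23 in the same order.

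Glucose-6-phosphate isomerase (Gpi1), the next enzyme, fell slightly with SNI sEVs, to 193, 193 and 199 TPM against 221, 218 and 208 TPM with sham sEVs and 232, 216, 224 and 230.3 TPM with PBS. Its log2 fold change was -0.21 against PBS (limma adjusted p = 0.018) and -0.14 against sham sEV (adjusted p = 0.019). With the replicate number as a block the adjusted p against PBS was 0.059 (0.12 with the block on SNI sEV and PBS libraries alone), and it was 0.051 to 0.097 without PBS library 3 or any 1 of the SNI sEV libraries. It was 0.071 after median-of-ratios scaling and 0.07 when only these groups were fitted. The call against sham sEV was lost without sham sEV library 1 or 2 or SNI sEV library 1 or 2 (adjusted p 0.055 to 0.074). Against PBS, Gpi1 with sham sEVs had a log2 fold change of -0.07 that became 0.22 after median-of-ratios scaling.

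Phosphofructokinase commits the sugar to glycolysis, and its 3 subunit genes moved apart. Pfkl, the liver-type subunit and the most abundant here, had 62.6, 68.3 and 75.1 TPM with SNI sEVs, 107, 106 and 100.4 TPM with sham sEVs and 82.1, 79.6, 86.0 and 82.7 TPM with PBS. The 3 groups did not overlap, with SNI sEV lowest and sham sEV highest. Pfkl was lower with SNI sEVs than with PBS (log2 fold change -0.27, limma adjusted p = 0.029), higher with sham sEVs than with PBS (0.33, adjusted p = 0.00051), and 1.52-fold lower with SNI sEVs than with sham sEVs (adjusted p = 1.1e-05). The first of these calls was lost with the replicate number as a block (adjusted p = 0.074, or 0.086 on SNI sEV and PBS libraries alone) and without PBS library 3 or 4, sham sEV library 1 or 2, or SNI sEV library 1 or 2 (0.051 to 0.14). It was also lost with no filter on low values (0.06) and when only SNI sEV and PBS libraries were fitted (0.095).

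Pfkm, the muscle-type subunit, went the other way with sham sEVs, at 27.0, 26.6 and 25.9 TPM with SNI sEVs, 16.3, 16.2 and 16.7 TPM with sham sEVs and 29.1, 26.9, 27.4 and 33.3 TPM with PBS. It fell with sham sEVs against PBS (log2 fold change -0.79, limma adjusted p = 1.4e-06), as did the platelet-type Pfkp (-0.51, adjusted p = 0.00011), which averaged 18.6, 13.4 and 19.5 TPM with SNI sEVs, sham sEVs and PBS. Neither was called for SNI sEV against PBS. The Pfkl share of phosphofructokinase TPM was 60.3 ± 1.6% with SNI sEVs, 77.8 ± 0.7% with sham sEVs and 62.9 ± 1.6% with PBS (SD, n = 3, 3 and 4), while the summed level was 114, 134 and 131 TPM.

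Pfkfb3 and Pfkfb4 make and break fructose-2,6-bisphosphate, the strongest allosteric activator of phosphofructokinase, and Pfkfb3 is the more one-sided producer. Pfkfb3 had 69.5, 75.7 and 76.1 TPM with SNI sEVs, 92.8, 96.4 and 92.9 TPM with sham sEVs and 53.1, 69.8, 70.2 and 67.7 TPM with PBS. Sham sEV libraries were highest, 1.44-fold over PBS (limma adjusted p = 0.00024) and above SNI sEV by 1.27-fold (adjusted p = 0.0072), and SNI sEV overlapped PBS. Pfkfb4 averaged 27.6, 23.3 and 24.0 TPM with SNI sEVs, sham sEVs and PBS, and was higher with SNI sEVs than with sham sEVs (log2 fold change 0.24, limma adjusted p = 0.01). That sign turned to -0.03 after median-of-ratios scaling.

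Aldolase splits fructose-1,6-bisphosphate. Aldoa, the general isoform, had 874, 894 and 926 TPM with SNI sEVs, 1092, 1089 and 1059 TPM with sham sEVs and 1143, 998, 1064 and 1015 TPM with PBS. SNI sEV libraries were below all others (log2 fold change against PBS -0.23, limma adjusted p = 0.026). Without PBS library 3, sham sEV library 2 or any 1 of the SNI sEV libraries that p was 0.051 to 0.13, after median-of-ratios scaling 0.14, and with the replicate number as a block on SNI sEV and PBS libraries alone 0.097. With no filter on low values it was 0.074, and with only these groups fitted 0.096. For sham sEV against PBS the log2 fold change of Aldoa was 0.04 (limma adjusted p = 0.56), but 0.32 (0.0028) after median-of-ratios scaling.

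Aldoc, aldolase C, which in brain is best known from astrocytes and Purkinje cells, had 17.0, 14.3 and 14.5 TPM with SNI sEVs, 6.84, 5.39 and 6.08 TPM with sham sEVs and 17.8, 15.7, 13.3 and 18.7 TPM with PBS. Sham sEV libraries were lowest. The gene fell 2.44-fold with sham sEVs against PBS (log2 fold change -1.29, limma adjusted p = 1.6e-06) and was 2.29-fold higher with SNI sEVs than with sham sEVs (adjusted p = 7.2e-06). Markers of astrocytes moved with it: the 10 summed to 153 to 157 TPM with SNI sEVs, 84.3 to 97.5 TPM with sham sEVs and 132 to 151 TPM with PBS. Of the 9 that were tested 8 were lower with sham sEVs than with PBS, among them Gfap, the intermediate filament of astrocytes (24.6 TPM with SNI sEVs, 9.58 TPM with sham sEVs and 23.1 TPM with PBS). The share lower was 88.9%, beside 52.5% of all genes. After median-of-ratios scaling 7 of the 9 were lower, beside 30.9% of all genes. After quantile normalization 3 were lower and 1 higher, beside 33% and 29.1% of all genes. Gjb6 was the one marker at 0 in some libraries, 5 of 10. The part of these cells in the Aldoc result was not tested.

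Of the later steps, from triosephosphate isomerase to enolase, Tpi1, Gapdh and Eno1 fell with SNI sEVs against PBS, and Pgk1, Pgam1 and Eno2 were not called. Tpi1, the isomerase, had 389, 437 and 459 TPM with SNI sEVs, 485, 509 and 495 TPM with sham sEVs and 546, 540.1, 546 and 493 TPM with PBS. Eno1, the ubiquitous enolase, had 195, 200.1 and 211 TPM with SNI sEVs, 260, 251 and 254 TPM with sham sEVs and 272, 240, 252 and 243 TPM with PBS. In both genes the SNI sEV libraries lay below every PBS and sham sEV library. Tpi1 fell by 0.31 against PBS on the log2 scale (limma adjusted p = 0.012, but 0.057 without SNI sEV library 1) and Eno1 by 0.32 (adjusted p = 0.0046), a call that held under every alternative run.

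Gapdh, glyceraldehyde-3-phosphate dehydrogenase and a common reference gene, had 127, 135 and 138 TPM with SNI sEVs, 164, 157 and 159.8 TPM with sham sEVs and 164, 154, 162 and 143 TPM with PBS. It was lower with SNI sEVs than with PBS (log2 fold change -0.22, limma adjusted p = 0.043), a call lost without any 1 library other than PBS library 1 or 4 (0.053 to 0.19) and with the replicate block on SNI sEV and PBS libraries alone (0.071). The call was also lost after median-of-ratios scaling (0.14), after quantile normalization (0.071), with no filter on low values (0.08) and when only these groups were fitted (0.13). Pgk1, phosphoglycerate kinase, the first ATP-producing step, had 189, 226 and 230.2 TPM with SNI sEVs, 265, 273 and 267 TPM with sham sEVs and 225, 274, 273 and 218 TPM with PBS. It overlapped PBS and was not called against it (-0.20, limma adjusted p = 0.3), except with the replicate block on SNI sEV and PBS libraries alone (-0.26, adjusted p = 0.047). It was lower with SNI sEVs than with sham sEVs (log2 fold change -0.32, limma adjusted p = 0.015, but 0.065 without SNI sEV library 1). Pgam1, phosphoglycerate mutase, had 261, 298 and 311 TPM with SNI sEVs, 323, 329 and 324 TPM with sham sEVs and 332, 364, 352 and 318 TPM with PBS. SNI sEV libraries were below both other groups, and neither difference passed (log2 fold changes -0.24 and -0.17, limma adjusted p = 0.067 and 0.053 against PBS and sham sEV). With the replicate number as a block, Pgam1 passed against PBS (-0.27, adjusted p = 0.034) and against sham sEV (-0.17, 0.025). Against sham sEV it also passed after median-of-ratios scaling (-0.44, limma adjusted p = 0.00035) and quantile normalization (-0.22, 0.023). The same was so with only these groups fitted (0.037), with copies summed (0.034), and without PBS library 1, 2 or 4 or SNI sEV library 3 (0.026 to 0.047).

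With sham sEVs, none of Tpi1, Gapdh, Pgk1, Pgam1 and Eno1 was called against PBS (log2 fold changes -0.10 to 0.13, limma adjusted p = 0.18 to 0.75). After median-of-ratios scaling all of these were higher with sham sEVs than with PBS (0.19 to 0.41), which turns the sign for Tpi1 and Pgam1. Eno2, the neuron-specific enolase, averaged 44.6 ± 1.6 TPM with SNI sEVs, 59.1 ± 4.3 TPM with sham sEVs and 49.2 ± 1.5 TPM with PBS (SD, n = 3, 3 and 4). Unlike Eno1 it was called higher with sham sEVs than with PBS (log2 fold change 0.26, limma adjusted p = 0.0018), while the difference between these 2 genes was not tested.

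Pyruvate kinase (Pkm), the last step, had 673, 634 and 669 TPM with SNI sEVs, 615, 594 and 579 TPM with sham sEVs and 760.4, 684, 685 and 716 TPM with PBS. PBS libraries were highest and sham sEV libraries lowest. Pkm fell with sham sEVs against PBS by 0.25 on the log2 scale (limma adjusted p = 0.00077), which is close to the median of all genes, and after median-of-ratios scaling the value was 0.03. It was higher with SNI sEVs than with sham sEVs (0.14, limma adjusted p = 0.033), which became -0.13 after that scaling and was lost without sham sEV library 2 or 3 or SNI sEV library 1 or 3 (0.081 to 0.11).

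Summed over the 16 enzymes from hexokinase to pyruvate kinase, glycolytic TPM was 3621, 3769 and 3929 with SNI sEVs, 4288, 4265 and 4152 with sham sEVs and 4413, 4254, 4341 and 4148 with PBS. The SNI sEV libraries were below all others, and sham sEV and PBS overlapped. For SNI sEV against PBS 6 of the 16 enzymes were called lower and 0 higher (9 and 1 at an unadjusted p under 0.05 with limma), beside 2.36% and 2.97% of all genes. For sham sEV against PBS 3 were higher and 4 lower, beside 16.5% and 52.5%. For SNI sEV against sham sEV 4 were higher and 9 lower, beside 49.9% and 15.7%. After median-of-ratios scaling the counts were 0 higher and 3 lower, 12 higher and 3 lower, and 3 higher and 12 lower in those comparisons. The shares of all genes were then 3.31% and 1.74%, 31.9% and 30.9%, and 28.7% and 30.2%. SNI sEV library 1 was the lowest of its group for 24 of the 34 members, against 47.3% of all genes. Without it only Slc2a1, Eno1 and Ankrd37 kept their calls against PBS, so the count fell to 3. The count was 4 without PBS library 3, 5 without SNI sEV library 2 and 6 without sham sEV library 2.

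**Figure D3:**
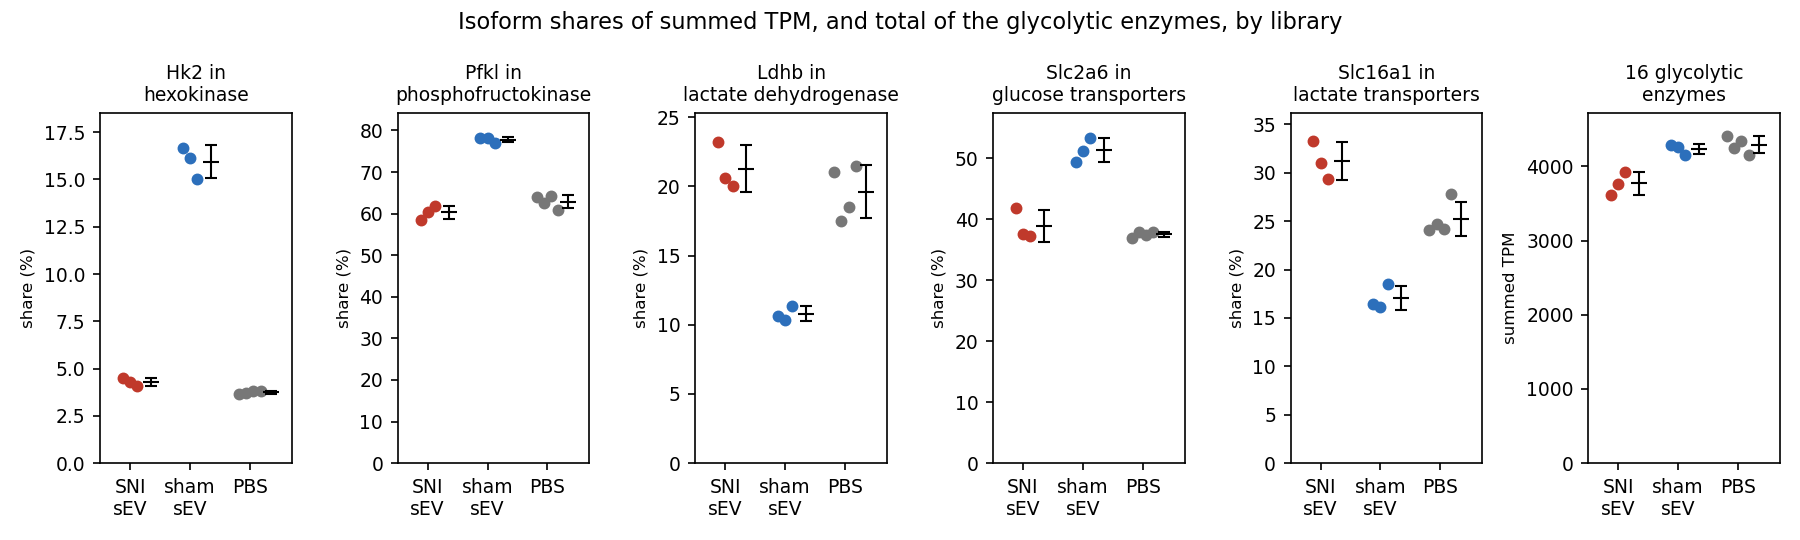
Share of the named isoform in the summed TPM of its enzyme or transporter family (first 5 panels, %) and the summed TPM of the 16 glycolytic enzymes (last panel), by library as points with mean and SD as bars, for SNI sEV, sham sEV and PBS. Sums use each gene's own row only. Sham sEV libraries have the largest Hk2, Pfkl and Slc2a6 shares and the smallest Ldhb and Slc16a1 shares, and SNI sEV libraries the lowest summed glycolytic TPM.

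Several of these genes have many processed copies in the mouse genome, and how the authors divided reads among copies is not given in the sources used here. Near-identical copies were taken as other rows of the table whose transcript matched the member's at 90% identity or more over at least 80% of the copy. Gapdh's own row averaged 150.3 TPM over the 10 libraries and its 150 copies 3995 TPM, so the own row held 3.63% of the total. Eno1's own row held 15.4% (238 TPM against 1307 TPM in 6 copies) and Pgk1's 21.6% (244 TPM against 888 TPM in 2 copies). The own row of Pgam1 and that of Bnip3 each held 43.9%, Ldha's 61.8%, Tpi1's 72.4% and Aldoa's 80.1%. The levels of these genes in TPM are therefore uncertain, and the order of levels along the pathway is not read from them.

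The fold changes moved little when copies were added to their gene. For SNI sEV against PBS the log2 fold change with copies was -0.20 for Gapdh (limma adjusted p = 0.03), -0.25 for Eno1 (0.0057), -0.33 for Tpi1 (0.0069) and -0.23 for Aldoa (0.02). Pgam1 became a call at -0.25 (limma adjusted p = 0.038) and Ldha stopped being one at -0.22 (0.063). With the copies of all 16 enzymes, 182 rows in all, the summed TPM was 9594 to 10472 with SNI sEVs, 11715 to 11879 with sham sEVs and 11053 to 11769 with PBS.

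**Figure D4:**
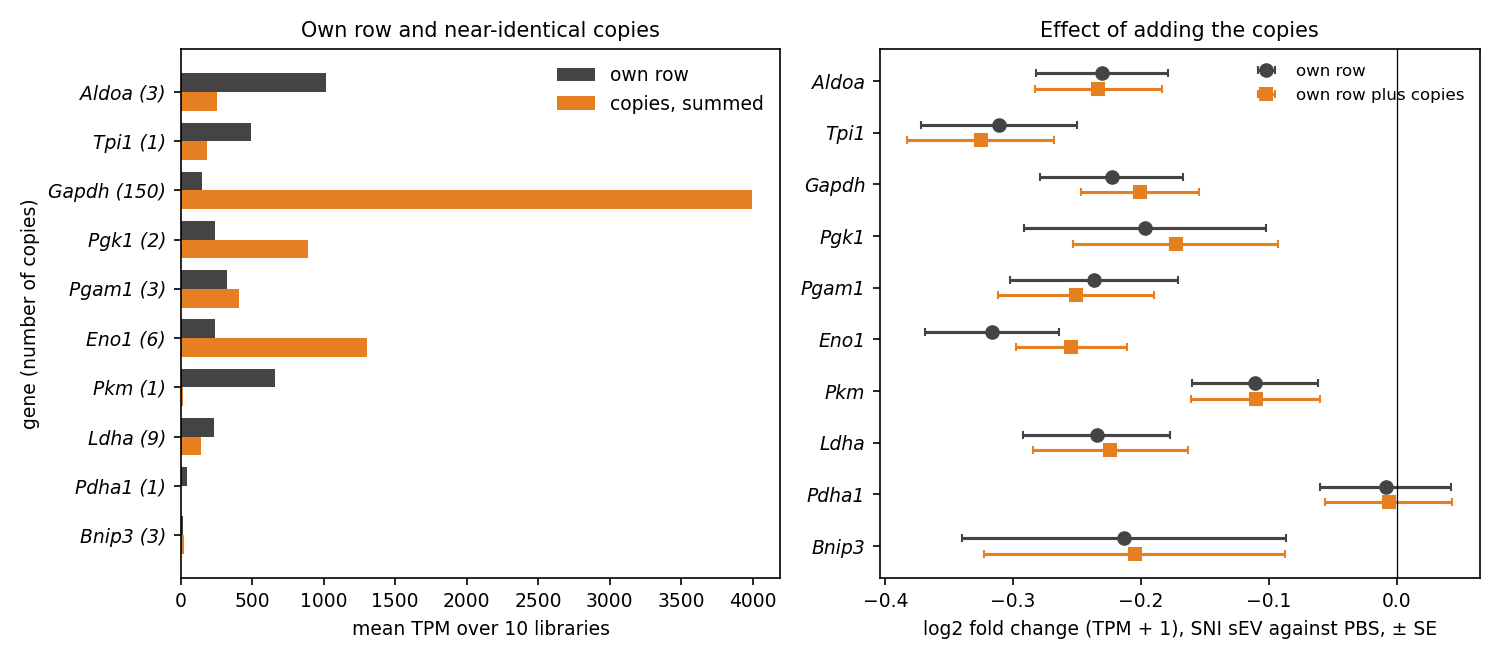
Left, mean TPM over the 10 libraries of a gene's own row and of its near-identical copies summed, with the number of copies in brackets; right, log2 fold change of SNI sEV against PBS with its standard error for the own row and with the copies added. Gapdh has 150.3 TPM in its own row and 3995 TPM in copies, and the fold changes with and without copies lie within each other's standard errors except for Eno1, where they are -0.32 and -0.25.

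Lactate dehydrogenase joins pyruvate and lactate. Ldha, the subunit that favours lactate formation, had 192, 207 and 221 TPM with SNI sEVs, 241, 249.8 and 247 TPM with sham sEVs and 247, 253, 248 and 226 TPM with PBS. SNI sEV libraries were lowest (log2 fold change -0.23 against PBS, limma adjusted p = 0.039). That call was lost without any 1 library other than PBS library 1 or 4 or SNI sEV library 3 (0.064 to 0.18), and with the replicate block on SNI sEV and PBS libraries alone (0.066). It was also lost after median-of-ratios scaling (0.097), after quantile normalization (0.067), with no filter on low values (0.082) and when only these groups were fitted (0.12). For sham sEV against PBS the log2 fold change of Ldha was 0.01 (limma adjusted p = 0.83), but 0.30 (0.0026) after median-of-ratios scaling. Ldhb, the subunit that favours lactate oxidation, had 58.1, 53.8 and 55.5 TPM with SNI sEVs, 28.8, 28.9 and 31.7 TPM with sham sEVs and 65.9, 53.8, 56.3 and 61.7 TPM with PBS. It fell 1.96-fold with sham sEVs against PBS (limma adjusted p = 2.9e-07) and was 1.84-fold higher with SNI sEVs than with sham sEVs (adjusted p = 1.6e-06). Ldhb made up 21.3 ± 1.7% of lactate dehydrogenase TPM with SNI sEVs, 10.8 ± 0.5% with sham sEVs and 19.6 ± 1.9% with PBS (SD, n = 3, 3 and 4). These shares use Ldha's own row alone, which held 61.8% of its TPM with copies, so their level is uncertain.

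At the branch into the mitochondrion, Pdk1, the kinase that shuts pyruvate dehydrogenase off and a HIF-induced gene, had 15.7, 19.0 and 20.5 TPM with SNI sEVs, 11.1, 11.98 and 11.4 TPM with sham sEVs and 17.1, 23.6, 24.2 and 20.5 TPM with PBS. It fell with sham sEVs against PBS (log2 fold change -0.83, limma adjusted p = 7.1e-05) and was higher with SNI sEVs than with sham sEVs (0.63, adjusted p = 0.0011). Pdha1, the catalytic subunit that the kinase acts on, held at 43.1, 44.3 and 44.8 TPM with SNI sEVs, 41.1, 42.7 and 43.6 TPM with sham sEVs and 41.7, 44.9, 44.3 and 46.5 TPM with PBS. Its groups overlapped throughout, with a log2 fold change of -0.06 for sham sEV against PBS that became 0.22 after median-of-ratios scaling.

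Lactate leaves or enters through monocarboxylate transporters. Slc16a3 (MCT4), the exporter of glycolytic cells, had 35.4, 43.4 and 47.4 TPM with SNI sEVs, 55.1, 60.1 and 55.1 TPM with sham sEVs and 48.3, 55.3, 58.7 and 47.8 TPM with PBS. SNI sEV libraries lay below both other groups, and the difference passed against sham sEV (log2 fold change -0.43, limma adjusted p = 0.0043). Against PBS it did not (-0.32, adjusted p = 0.11), except with the replicate number as a block (-0.36, adjusted p = 0.038, or 0.028 on SNI sEV and PBS libraries alone). For sham sEV against PBS the log2 fold change of Slc16a3 was 0.11 (limma adjusted p = 0.33), but 0.39 (0.0041) after median-of-ratios scaling. Slc16a1 (MCT1), a carrier with higher affinity, had 17.6, 19.5 and 19.7 TPM with SNI sEVs, 10.9, 11.6 and 12.5 TPM with sham sEVs and 15.4, 18.1, 18.7 and 18.4 TPM with PBS. It fell 1.47-fold with sham sEVs against PBS (limma adjusted p = 7.7e-05). Its share of the pair's TPM was 31.2% with SNI sEVs, 17.0% with sham sEVs and 25.2% with PBS.

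All 3 oxygen-sensing members were called for sham sEV against PBS, where 16.5% of all genes were called higher and 52.5% lower. For SNI sEV against PBS 0 were called (0 at an unadjusted p under 0.05, limma), beside 2.97% and 2.36% of all genes. Hif1a had 65.2, 70.1 and 71.1 TPM with SNI sEVs, 134, 143 and 128 TPM with sham sEVs and 52.4, 76.1, 71.7 and 71.2 TPM with PBS. Sham sEV libraries were far above the overlapping SNI sEV and PBS libraries. The rise over PBS was 1.99-fold (log2 fold change 0.99, SE 0.11, limma adjusted p = 7.4e-06), and SNI sEV was 1.95-fold below sham sEV (adjusted p = 2.2e-05). For SNI sEV against PBS the log2 fold change was 0.03 with a 95% interval of -0.20 to 0.27. The start used for the Hif1a promoter above lies inside the gene as GENCODE vM21 draws it, chromosome 12, 73901375 to 73947530. The same is true of the start used for Ankrd37, drawn at chromosome 8, 45996902 to 46005707 (minus strand).

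The 2 member hydroxylases fell where Hif1a rose. Egln1 (PHD2), the main oxygen sensor, averaged 39.9 ± 1.9 TPM with SNI sEVs, 31.7 ± 0.5 TPM with sham sEVs and 42.6 ± 3.1 TPM with PBS (SD, n = 3, 3 and 4). Egln3 (PHD3), itself induced by HIF, averaged 11.2 ± 0.9 TPM with SNI sEVs, 7.45 ± 0.68 TPM with sham sEVs and 12.7 ± 0.8 TPM with PBS. Both fell with sham sEVs against PBS (log2 fold changes -0.41 and -0.70, limma adjusted p = 0.00012 and 1.2e-05), and neither was called for SNI sEV against PBS. Both were higher with SNI sEVs than with sham sEVs (0.32 and 0.53, limma adjusted p = 0.0014 and 0.00024), with Egln1 at 0.06 and not called after median-of-ratios scaling.

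**Figure D5:**
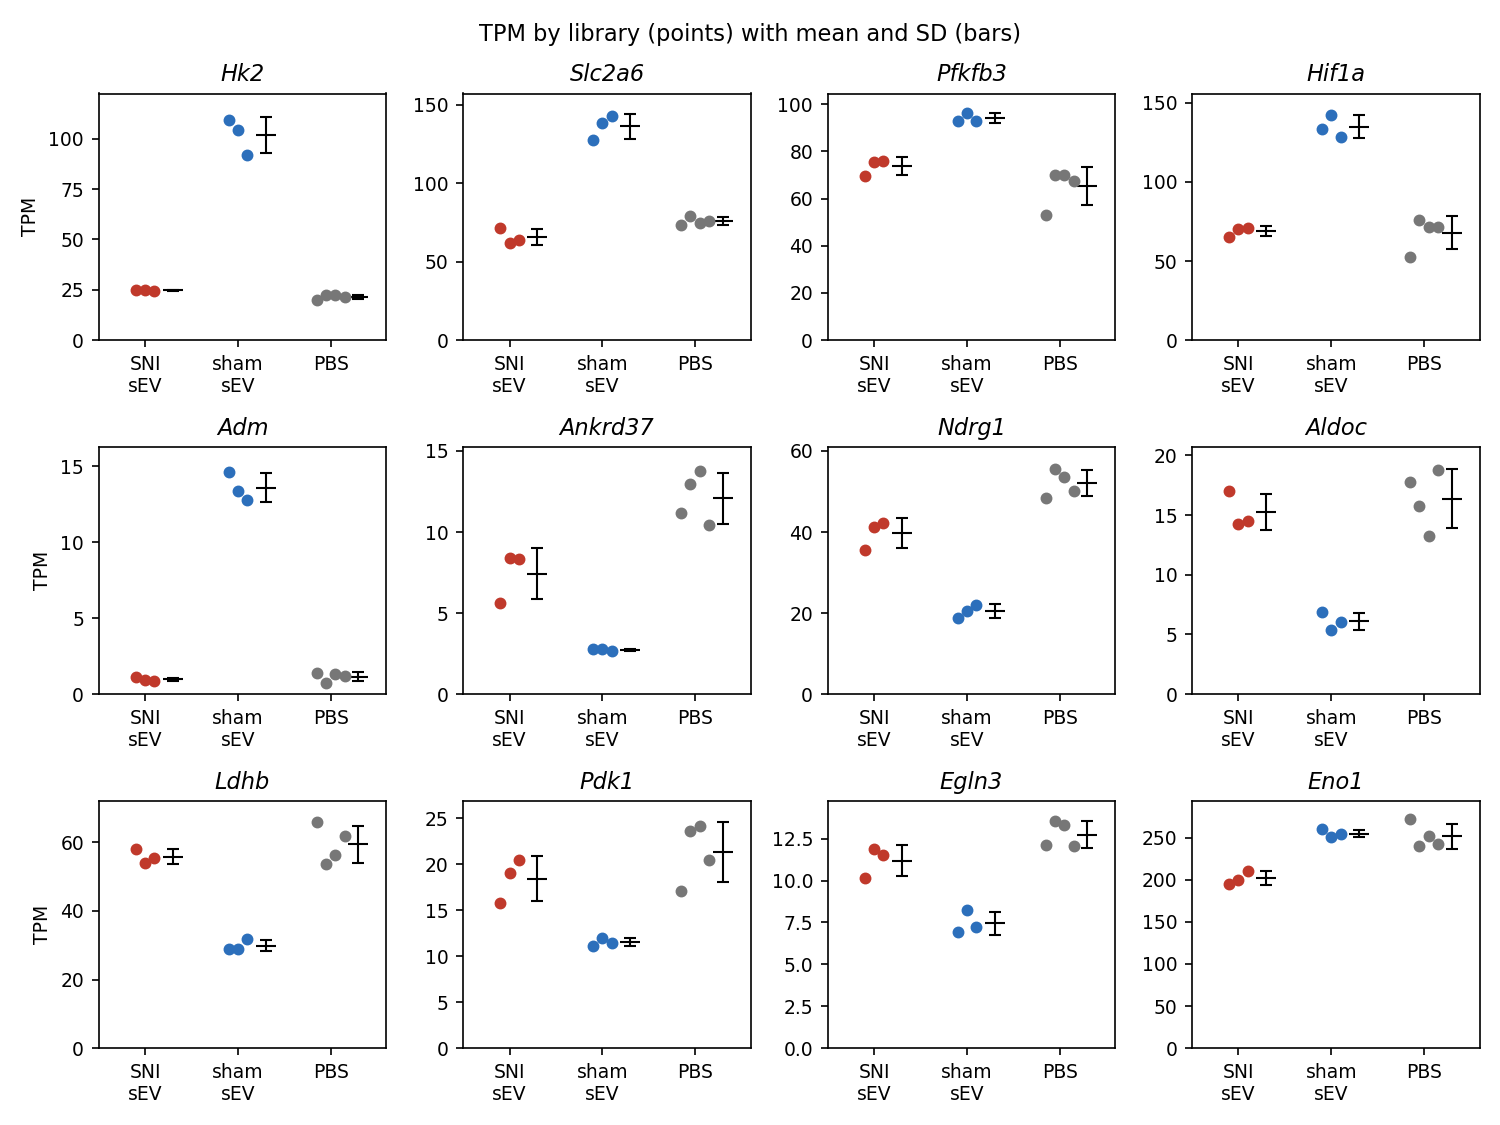
TPM by library (points) with the mean and SD (bars) for 12 of the genes, with SNI sEV, sham sEV and PBS from left to right on axes that start at 0. Hk2, Slc2a6, Pfkfb3, Hif1a and Adm are highest in sham sEV libraries, Ankrd37, Ndrg1, Aldoc, Ldhb, Pdk1 and Egln3 lowest there, and Eno1 is lowest in SNI sEV libraries.

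The 4 hypoxia-induced members did not move together. Adm, a vasodilator peptide, had 1.10, 0.940 and 0.890 TPM with SNI sEVs, 14.6, 13.4 and 12.8 TPM with sham sEVs and 1.40, 0.745, 1.32 and 1.18 TPM with PBS. It was near the filter in SNI sEV and PBS cultures and clearly expressed with sham sEVs alone. The rise over PBS was 6.79-fold on the scale of TPM + 1 (limma adjusted p = 1.4e-09), which understates the 11.7-fold ratio of mean TPM. With SNI sEVs it was 7.37-fold lower than with sham sEVs on the same scale (adjusted p = 2.6e-09). The gene lies on chromosome 7, 110627661 to 110629820 (GRCm38, plus strand).

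Ankrd37, an ankyrin-repeat protein induced by HIF-1, went the opposite way. It had 5.60, 8.37 and 8.33 TPM with SNI sEVs, 2.78, 2.78 and 2.64 TPM with sham sEVs and 11.2, 13.0, 13.8 and 10.4 TPM with PBS. The groups formed 3 separate steps, lowest with sham sEVs. Ankrd37 fell 3.48-fold with sham sEVs against PBS (log2 fold change -1.80, limma adjusted p = 2.2e-07) and 1.56-fold with SNI sEVs against PBS (-0.64, adjusted p = 0.014). For SNI sEV the limma adjusted p was 0.052 when only these groups were fitted and 0.055 with no filter on low values. Of its exon bases 22.7% overlap Lrp2bp on the opposite strand, whose own level averaged 0.082 TPM with SNI sEVs, 0.034 TPM with sham sEVs and 0.10 TPM with PBS. The library kit marks strand, and the strand setting of the counting is not given in the sources used here.

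Ndrg1, a stress-responsive gene that is also prominent in oligodendrocytes, had 35.5, 41.3 and 42.3 TPM with SNI sEVs, 18.7, 20.6 and 22.1 TPM with sham sEVs and 48.5, 55.6, 53.7 and 50.2 TPM with PBS. It too formed 3 separate steps, with log2 fold changes of -0.38 for SNI sEV against PBS (limma adjusted p = 0.017) and -1.30 for sham sEV against PBS (adjusted p = 4.7e-08). The value for SNI sEV was 0.053 without PBS library 3 and 0.09 without SNI sEV library 1. Oligodendrocyte-lineage markers summed to 652 to 725 TPM with SNI sEVs, 426 to 474 TPM with sham sEVs and 595 to 682 TPM with PBS. Of these markers 9 of 10 were lower with sham sEVs than with PBS, beside 52.5% of all genes. After median-of-ratios scaling 5 were lower, beside 30.9% of all genes. For SNI sEV against PBS 0 were called (1 higher at an unadjusted p under 0.05, limma), beside 2.97% of all genes called higher and 2.36% lower. None of these markers was at 0 in any library, and their part in the Ndrg1 result was not tested. Bnip3, a mitochondrial mitophagy receptor, averaged 16.4 ± 2.9 TPM with SNI sEVs, 18.1 ± 1.8 TPM with sham sEVs and 19.1 ± 2.5 TPM with PBS (SD, n = 3, 3 and 4) and was not called in any comparison. After median-of-ratios scaling it was lower with SNI sEVs than with sham sEVs (log2 fold change -0.41, limma adjusted p = 0.017).

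Other hypoxia-induced genes outside the 34 were counted in the same way. Of 24 tested, 1 was higher and 14 lower with sham sEVs than with PBS (4.17% and 58.3%), beside 16.5% and 52.5% of all genes. Their median log2 fold change was -0.25, equal to that of all genes. After median-of-ratios scaling 7 were higher and 10 lower (29.2% and 41.7%), beside 31.9% and 30.9% of all genes. Angptl4, a secreted lipase inhibitor, averaged 5.38 TPM with SNI sEVs, 0.312 TPM with sham sEVs and 6.71 TPM with PBS (limma adjusted p = 2.1e-08 for sham sEV against PBS). Mxi1, which antagonises MYC, averaged 16.8, 6.48 and 19.4 TPM in the same order (1.1e-09), and Zfp395 16.7, 5.59 and 18.1 TPM (1.4e-08). Ero1a, an oxidase of the endoplasmic reticulum, was the single one higher (log2 fold change 0.49, limma adjusted p = 0.012). With SNI sEVs 4 of the 24 were lower than with PBS, Bhlhe40 (-0.37), Mif (-0.41), Hmox1 (-0.26) and Fam162a (-0.30), with limma adjusted p = 0.024 to 0.04, and 0 were higher (2 at an unadjusted p under 0.05). Of all genes, 2.36% were called lower and 2.97% higher in that comparison. After median-of-ratios scaling 1 of the 24 was lower with SNI sEVs than with PBS, beside 1.74% of all genes. Vegfa, the growth factor of blood vessels, was chosen after its values were seen. It averaged 3.58 ± 0.18 TPM with SNI sEVs, 4.81 ± 0.10 TPM with sham sEVs and 4.41 ± 0.16 TPM with PBS (SD, n = 3, 3 and 4), with no call against PBS for either vesicle.

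Among 9 other HIF subunits and regulators, Epas1 stood out. Epas1 encodes HIF-2α and averaged 15.8 ± 0.8 TPM with SNI sEVs, 2.84 ± 0.21 TPM with sham sEVs and 19.4 ± 2.2 TPM with PBS (SD, n = 3, 3 and 4). It fell with sham sEVs against PBS (log2 fold change -2.41, limma adjusted p = 7.4e-10), in the libraries where Hif1a was high. Vhl, whose product directs hydroxylated HIF to degradation, was higher with sham sEVs than with PBS (0.38, limma adjusted p = 4.3e-05), as was the hydroxylase Egln2 (0.45, 0.00053), and Hif1an, the asparagine hydroxylase that inhibits HIF, was lower (-0.48, 0.00028). On deposited TPM 2 of the 9 were higher and 2 lower with sham sEVs than with PBS, beside 16.5% and 52.5% of all genes. After median-of-ratios scaling 4 were higher and 2 lower, beside 31.9% and 30.9% of all genes. None of the 9 was called for SNI sEV against PBS on deposited TPM (1 lower at an unadjusted p under 0.05, limma), and 1 was lower after quantile normalization.

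Routes that branch from glycolysis were called mostly in the comparisons with sham sEV. The counts below for sham sEV against PBS stand beside 16.5% of all genes called higher and 52.5% lower. Of 12 tested genes for pyruvate entry and pyruvate dehydrogenase 7 were lower with sham sEVs than with PBS, led by the kinase Pdk2 at 10.1 TPM with SNI sEVs, 3.96 TPM with sham sEVs and 11.7 TPM with PBS (limma adjusted p = 8.4e-08). Of 8 pentose phosphate genes 5 were lower and 2 higher. Taldo1 (transaldolase) averaged 367 TPM with SNI sEVs, 219 TPM with sham sEVs and 398 TPM with PBS, and G6pdx, the rate-limiting first enzyme, 177, 222 and 187 TPM. Taldo1 was lower and G6pdx higher with sham sEVs than with PBS (limma adjusted p = 5.2e-08 and 0.00032). Of 8 glycogen and gluconeogenesis genes 4 were higher and 1 lower, among them Pck2, Pgm1 and glycogen synthase Gys1 (log2 fold changes 0.51, 0.43 and 0.44, limma adjusted p = 5.8e-06, 2.6e-05 and 5.1e-05).

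Of 5 other sugar and lactate transporters that could be tested, 4 were lower and 1 higher with sham sEVs than with PBS. Slc2a8 (GLUT8) averaged 20.6 TPM with SNI sEVs, 7.13 TPM with sham sEVs and 22.7 TPM with PBS (limma adjusted p = 4.2e-09). Of 8 other glycolytic isoforms and side enzymes 5 were lower, with Pfkfb2 at 9.37, 4.61 and 9.13 TPM in the same order (7.7e-05). The lists' median log2 fold changes for sham sEV against PBS were -0.25 for pyruvate entry, -0.26 for the pentose phosphate pathway, -0.35 for transporters, -0.27 for isoforms and 0.36 for glycogen, beside -0.25 for all genes. After median-of-ratios scaling the counts for sham sEV against PBS were 2 higher and 3 lower for pyruvate entry, 3 and 3 for the pentose phosphate pathway, 1 and 2 for transporters, 1 and 3 for isoforms and 7 and 0 for glycogen. Of all genes 31.9% were then higher and 30.9% lower. After quantile normalization the lists' counts were 0 and 3, 2 and 4, 1 and 3, 2 and 1, and 6 and 1 in the same order, beside 29.1% and 33% of all genes. In none of these 5 lists did limma call a gene for SNI sEV against PBS, beside 2.97% of all genes called higher and 2.36% lower. At an unadjusted p under 0.05 there were 2 pentose phosphate genes and 1 transporter, all lower.

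The authors' deposited table of differential genes lists 2375 genes, and 6 of the 34 members are in it: Hk2, Adm, Ankrd37, Slc2a6, Ndrg1 and Aldoc. In the authors' deposited table Hk2 has a signed fold change of 4.57 for sham sEV against PBS with a false discovery rate of 3e-05, and Adm 6.79 with 7.5e-05. For SNI sEV against PBS the authors' deposited table gives Ankrd37 -1.56 with a rate of 0.2 and Ndrg1 -1.30 with 0.13. Those rates do not pass 0.05, where limma's adjusted p did.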

How the data were processed

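Stranded poly(A) RNA libraries were prepared per the labels' protocols. The submitters' processing notes name bcl2fastq, BWA, Subread and featureCounts 2.0.2 with mm10; their order, the annotation, the strand setting and the treatment of multiply mapped reads are not given in the sources used here. The authors deposited TPM per gene symbol, which sums to 1000000 in each of the 10 libraries and keeps no read depth, so no counting interval can be given. The authors also deposited a table of 2375 differential genes with a signed fold change, treated here as a score, and with p-values and FDR values. 0 further per-sample columns were present.

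Here log2(TPM + 1) was fitted for the 14806 genes that averaged 1 TPM or more in limma 3.58.1 (R 4.3.3), with 1 mean per group over all 10 libraries, moderated variances with a trend, and Benjamini-Hochberg adjustment at 0.05 over all tested genes in each of 3 comparisons. Fold changes on this scale understate the change of low genes. Members and lists were chosen with earlier results of these data known. Per-library values are given for members called in any comparison with a log2 change of at least 1 and groups that did not overlap, and for the most abundant member of each step; further members are given by choice after their values were seen. From each other list up to 3 genes per comparison with the smallest p and a mean of at least 2 TPM were named. Of 158 list genes 4 (Pgk2, Pck1, Cldn5 and Cd3e) are not analysed here, and Ero1l was matched as Ero1a. Promoters are from RefSeq (GRCm38.p6); Ndrg1 and Slc2a3 have none shown. Gene coordinates are from GENCODE vM21, and copies were found with blastn against its transcripts.

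Same-numbered SNI sEV and PBS libraries deviated together from their group means (correlations 0.15 to 0.36 over 3 pairs, against -0.35 to 0.22 over 9 pairs with different numbers), so the blocked value, over all libraries and over these 2 groups alone, is printed where it changes a call. The numbers come from the labels, which do not say what they mark. On simulated data with 14806 genes, the limma fit recovered 77.6% of genes changed 1.5-fold and 97% of those changed 2-fold for SNI sEV against PBS, and 89.6% and 94% for sham sEV against PBS. The simulation gave every group the PBS means and changed only 67 genes at each of these folds. It therefore differs from the sham sEV comparisons, where most genes were called. Changes below 1.5-fold, the size of most member calls for SNI sEV against PBS, were not simulated. Alternatives were other pseudocounts, filters, scalings, fits and blocks, near-identical copies summed, and leaving out each library.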

Additional observations from a re-analysis of the deposited data

Results flagged for a closer look

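In 3 members 1 PBS library lay far from the other 3. Pfkfb3 had 53.1 TPM in PBS library 1, with the next lowest at 67.7 TPM. Slc16a1 had 15.4 TPM in PBS library 1, with the next at 18.1 TPM, and Tpi1 had 493 TPM in PBS library 4, with the next at 540.1 TPM. All 34 members were examined in this way, and chance marks about 5% of groups. PBS library 1 also stood apart over all genes, at 31.0 on the second principal component against -15.6 to 3.85 for the other libraries. It was the lowest of the PBS group for 53.4% of all genes and for 15 of the 34 members. Without it 1155 genes were called for SNI sEV against PBS rather than 790, and the members called lower were again 10. Pfkl moved in opposite directions from PBS, lower with SNI sEVs and higher with sham sEVs, with a log2 difference of -0.60 between the vesicles (limma adjusted p = 1.1e-05).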

How the results depend on the processing

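For SNI sEV against PBS the number of members called lower was 10, and it was 5 with no filter on low values, 6 after median-of-ratios scaling and 4 when only these groups were fitted, while leaving out 1 library gave 3 to 10. The number of all genes called there was 790.0, and it was 449 when only these groups were fitted, 444 with the replicate number as a block on these libraries alone (added once the data had been seen, as was summing near-identical copies), and 370.0 to 1155 without 1 library. That block on these libraries alone called 7 members lower, with Gpi1, Pfkl, Aldoa, Gapdh and Ldha lost and Pgk1 and Slc16a3 gained. With the replicate block over all 10 libraries the members' count was again 10, with Gpi1 and Pfkl lost (-0.20 and -0.27) and Pgam1 and Slc16a3 gained (-0.27 and -0.36); for SNI sEV against sham sEV Pgam1 was gained, and no other member call changed. For sham sEV against PBS the number of members higher was 8, and 22 after median-of-ratios scaling. Without 1 library that comparison gave 8 higher and 11 lower members each time and 9371 to 11176 genes in all, SNI sEV against PBS gave 0 higher members, and SNI sEV against sham sEV gave 11 to 12 higher and 14 to 18 lower members and 8697 to 10909 genes.

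After median-of-ratios scaling the sign turned for sham sEV against PBS in Hk1 (0.23), Hk3 (0.25), Gpi1 (0.22), Pfkfb4 (0.23), Tpi1 (0.19), Pgam1 (0.22), Pkm (0.030) and Pdha1 (0.22), and for SNI sEV against sham sEV in Hk3 (-0.23), Pfkfb4 (-0.029), Pkm (-0.13) and Pdha1 (-0.22). Quantile normalization turned Pfkfb4 for sham sEV against PBS (0.15). These values are log2 fold changes; that scaling moves all genes of a library together, and which scale is right was not tested. Read depth is unknown, so the counting error of low genes such as Adm cannot be given.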

Other observations

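Summed markers of the remaining cell types were as follows. Neutrophil and T cell markers were at 9.95 to 13.2 TPM with SNI sEVs, 31.3 to 33.3 TPM with sham sEVs and 6.22 to 10.5 TPM with PBS, so the sham sEV libraries were highest. Nearly all of that sum was S100a8 (11.7, 32.1 and 8.41 TPM in the same order), and every other marker of the list averaged under 1 TPM. Endothelial markers were at 29.8 to 32.7 TPM with SNI sEVs, 16.5 to 19.7 TPM with sham sEVs and 25.5 to 35.3 TPM with PBS. Most of that sum was Flt1, which averaged 28.7, 16.1 and 28.6 TPM in the same order. Kdr (2.36, 0.859 and 2.05 TPM) was also lowest with sham sEVs. Pecam1 (0.243, 0.811 and 0.172 TPM) and Cdh5 (0.221, 0.499 and 0.356 TPM) were highest there, and Tek and Emcn were near 0. Neuron markers overlapped between the groups, at 24.5 to 27.3 TPM with SNI sEVs, 22.4 to 27.0 TPM with sham sEVs and 22.6 to 32.9 TPM with PBS. Fibroblast and mural markers were at 6.46 to 13.5 TPM with SNI sEVs, 3.97 to 4.16 TPM with sham sEVs and 4.65 to 6.26 TPM with PBS. Acta2 averaged 7.13, 1.47 and 3.83 TPM in the same order, whereas Dcn (0.051, 1.89 and 0.037 TPM) was highest with sham sEVs. The other markers of this list averaged under 1 TPM in every group. Among them Lum was highest with sham sEVs and the rest were lowest there. Among microglial genes, Trem2, a lipid-sensing receptor, averaged 1181 TPM with SNI sEVs, 65.9 TPM with sham sEVs and 1422 TPM with PBS.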
